A study of Mus musculus with 8 samples.

Results

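Described here are 9 genes of the ATF4 and CHOP stress response, of 17167 genes listed, in cultured mouse undifferentiated spermatogonia (A_undiff) that were given the ID protein inhibitor AGX51 or its vehicle. The genes are *Atf4*, *Ddit3* (which encodes CHOP), *Atf3*, *Cebpb*, *Cebpg*, *Atf5*, *Trib3*, *Ppp1r15a* and *Nupr1*, and each was found by its gene name in the table. They were chosen by name with their change between AGX51 and vehicle already known from these libraries, so that change is given as a description, with no p-value for these genes. RNA was sequenced from cultures of 4 wild-type mice, each split into an AGX51 arm and a vehicle arm, which gave 4 AGX51 libraries and 4 vehicle libraries that share their culture numbers, 1 to 4. The AGX51 group received 80 µM AGX51 for 20 h, and the vehicle group received DMSO. The sample labels write this dose in mM and give the strain as CBA/J, whereas the supplemental procedures give C57BL/6J, and the age of the mice was not used here. All groups were grown on mitotically inactivated mouse embryonic fibroblast feeders in medium with GDNF, bFGF and EGF, were depleted of feeders and were plated on Geltrex before the agent was added, so the cultures hold spermatogonia without their testis niche and may hold remaining feeder cells.

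ATF4 is a basic leucine zipper (bZIP) transcription factor whose mRNA is translated more when kinases such as PERK and GCN2 phosphorylate the initiation factor eIF2, the event known as the integrated stress response. ATF4 switches on genes for amino acid uptake and synthesis, tRNA charging and redox balance, together with further bZIP factors, among them CHOP and ATF3, that act with it as partners or downstream. The response also carries its own brakes. TRIB3 is a pseudokinase that restrains ATF4 and CHOP, and the *Ppp1r15a* product GADD34 guides protein phosphatase 1 to eIF2 and so removes the phosphate.

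Of the 9 genes, 6 hold a match to a bZIP, stress or E-box motif before their start, and the promoters of 5 are printed. *Atf4* and *Atf5* are among the 6 through the E-box letters CAGGTG alone. The share of all genes with a match to any of these motifs was not counted, so nothing is read from the 6. Those of *Atf3*, *Nupr1*, *Ppp1r15a* and *Ddit3* show the bZIP motifs, and that of *Atf4* shows the E-box, a kind of site bound by the E proteins that ID proteins hold back. Each is the 250 bases before the RefSeq start (GRCm38.p6), written 5′ to 3′ on the strand of the gene, with motif matches in capitals and positions counted back from the start. *Atf3* (chr1:191183334-191183583, minus strand) and *Nupr1* (chr7:126625471-126625720, minus strand) each hold the reverse complement of TGATGNAA, the C/EBP-ATF response element, from -110 to -103. *Ppp1r15a* (chr7:45526269-45526518, minus strand) holds TGACGTCA, the cAMP response element, from -12 to -5. *Ddit3* (chr10:127290543-127290792, plus strand) holds TGANTCA, the AP-1 site, from -242 to -236. *Atf4* (chr15:80254934-80255183, plus strand) holds the E-box CAGGTG from -203 to -198 and again from -128 to -123.
Atf3: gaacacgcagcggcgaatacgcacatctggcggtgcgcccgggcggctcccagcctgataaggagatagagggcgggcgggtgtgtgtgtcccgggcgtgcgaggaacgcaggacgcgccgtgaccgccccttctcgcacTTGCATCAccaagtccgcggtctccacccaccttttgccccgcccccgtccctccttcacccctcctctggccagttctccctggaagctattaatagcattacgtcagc
Nupr1: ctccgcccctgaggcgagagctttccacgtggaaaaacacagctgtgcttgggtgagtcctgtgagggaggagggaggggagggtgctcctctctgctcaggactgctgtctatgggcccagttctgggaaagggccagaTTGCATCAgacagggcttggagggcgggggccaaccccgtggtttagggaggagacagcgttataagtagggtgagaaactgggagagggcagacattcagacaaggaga
Ppp1r15a: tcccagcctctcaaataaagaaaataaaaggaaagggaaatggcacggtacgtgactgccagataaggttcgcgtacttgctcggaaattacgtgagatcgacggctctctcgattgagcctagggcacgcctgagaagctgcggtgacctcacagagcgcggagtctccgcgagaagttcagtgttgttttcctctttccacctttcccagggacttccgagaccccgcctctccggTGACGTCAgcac
Ddit3: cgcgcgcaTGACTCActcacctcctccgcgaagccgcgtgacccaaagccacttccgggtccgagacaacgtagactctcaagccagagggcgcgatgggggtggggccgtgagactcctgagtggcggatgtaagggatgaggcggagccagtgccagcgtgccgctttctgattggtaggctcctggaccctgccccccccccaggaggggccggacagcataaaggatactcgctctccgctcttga
Atf4: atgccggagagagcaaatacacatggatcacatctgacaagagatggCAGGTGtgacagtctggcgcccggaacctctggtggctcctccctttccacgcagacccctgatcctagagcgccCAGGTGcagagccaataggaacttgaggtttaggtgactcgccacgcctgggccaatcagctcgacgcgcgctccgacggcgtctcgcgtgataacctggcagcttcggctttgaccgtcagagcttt

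Both strands were searched in 32851 windows of this length at the starts of 27025 genes. The C/EBP-ATF element was held by 3.45% of all windows and by 2 of the 9 genes. The cAMP response element was held by 1.55% of windows and by *Ppp1r15a* alone among the 9. The AP-1 site was in 6.75% of windows and in *Ddit3* alone among the 9. CAGGTG was in 17.2% of windows, in *Atf4* and in 1 of the 2 annotated starts of *Atf5*, from -183 to -178. The endoplasmic reticulum stress element (CCAAT and CCACG with 9 bases between them) was in 0.113% of windows and in none of the 9 genes. *Cebpb*, *Cebpg* and *Trib3* held no match in this window, which says only that these letters are not there. No printed matches overlap. The windows of *Atf3*, *Nupr1* and the *Atf5* start with CAGGTG lie inside the gene spans that GENCODE M21 gives, while that of *Ddit3* ends just inside its span.

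In the fit across all genes, 8 of the 9 passed the limits for a call, all of them higher with AGX51, and *Atf5* did not. For genes chosen with this contrast known, these calls describe their place in the fit and are no test of them. A call means a Benjamini-Hochberg adjusted p under 0.05 in edgeR's quasi-likelihood test and a change above 1.5-fold. Over all 14428 tested genes, 8.57% were called higher, 9.93% lower and 18.5% in either direction, and nothing is read from the difference. With library totals alone as the scale, 952 genes were called higher and 1752 lower, against 1236 higher and 1432 lower with TMM. The same 8 genes had every AGX51 library above every vehicle library in CPM (a count scaled to the library total), an order that 10.6% of tested genes showed, while 17.9% showed the opposite order. Summed over the 9 genes, the level was 976, 941, 1048 and 1361 CPM in AGX51 libraries 1 to 4, against 291, 304, 336 and 363 CPM in vehicle libraries 1 to 4. Each of the 9 genes was higher with AGX51 in 4 of 4 cultures, and the share of all tested genes with this order was not counted. In bulk RNA such as this, a change in the number of cells of a type and a change in RNA per cell cannot be told apart.

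**Figure D1:**
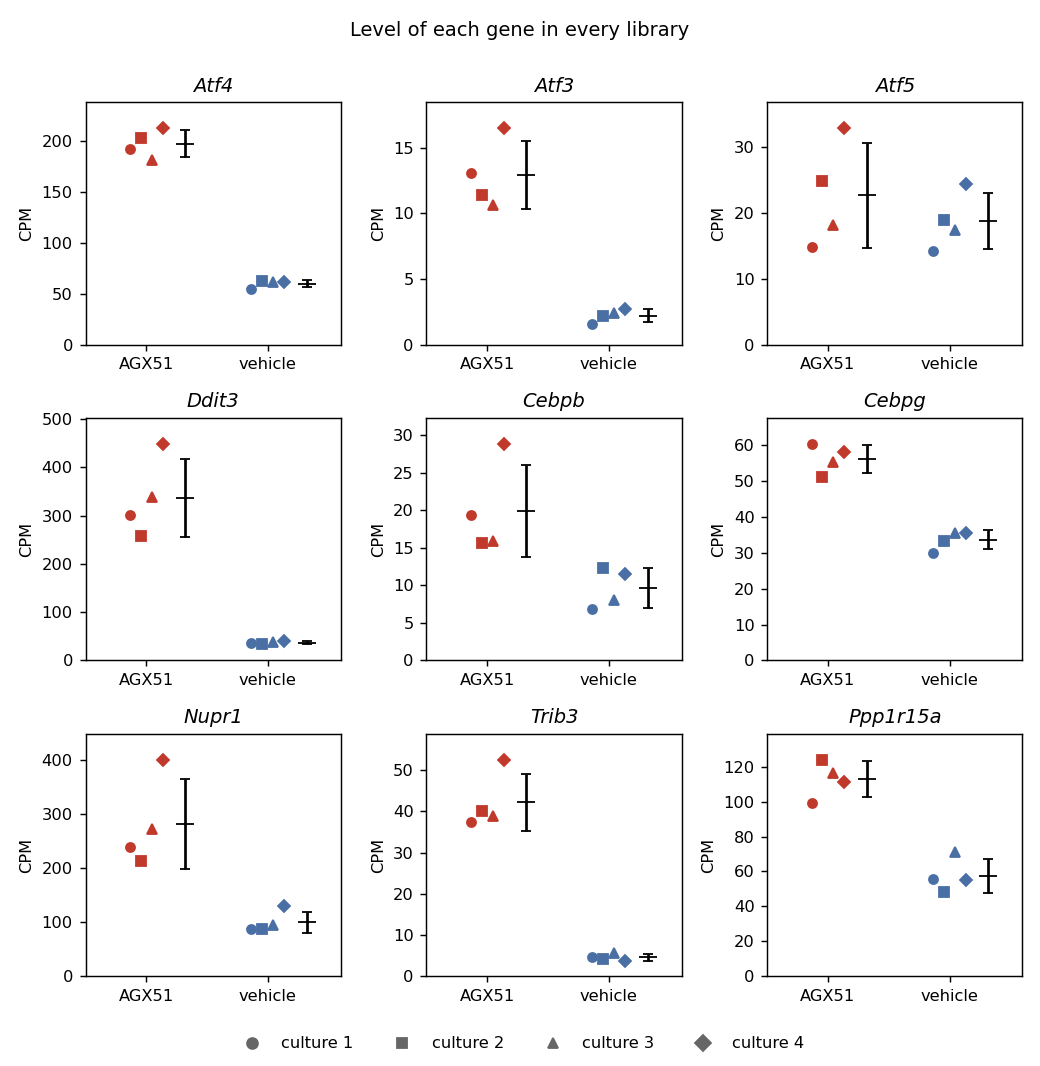
Level of each of the 9 genes in CPM in every library, with AGX51 on the left and vehicle on the right of each panel. Points are single libraries with a marker for each culture, bars are the mean ± SD of 4 libraries, and the groups do not overlap in 8 panels but do in the panel of *Atf5*.

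*Atf4* itself (chr15:80255184-80257541, plus strand, a single block of exon sequence) had 191, 203, 181 and 212 CPM in AGX51 libraries 1 to 4, against 54.5, 61.9, 61.7 and 61.4 CPM in vehicle libraries 1 to 4. The lowest AGX51 library was far above the highest vehicle library. The means were 197 ± 13.3 CPM with AGX51 and 59.9 ± 3.62 CPM with vehicle (SD, n = 4 each), and the fitted change was 3.47-fold, or 1.79 on the log2 scale with a standard error of 0.10. The ratio ran from 2.94-fold in culture 3 to 3.52-fold in culture 1, which made *Atf4* the most even of the 9 genes across cultures (SD of the log2 ratio 0.12). These values are of mRNA, and the translation of ATF4, where the pathway is mainly controlled, was not measured.

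*Ddit3* (chr10:127290774-127296288, plus strand) encodes CHOP, which pairs with other C/EBP family members and is known for its part in stress-induced cell death. It had 301, 258, 339 and 448 CPM in AGX51 libraries 1 to 4, against 35.4, 34.7, 38.8 and 39.5 CPM in vehicle libraries 1 to 4. The vehicle libraries were nearly level, whereas the AGX51 libraries spread widely around 336 ± 81.4 CPM, with a vehicle mean of 37.1 ± 2.42 CPM (SD, n = 4 each). The fitted change was 9.65-fold (log2 3.27, standard error 0.18). By culture the ratio was 8.51, 7.43, 8.74 and 11.3 in cultures 1 to 4. Exons of *Ddit3* share 68 bases with *Mars*, a tRNA synthetase gene on the opposite strand, which had 171 to 203 CPM with AGX51, against 134 to 148 CPM with vehicle. A second gene model also named *Ddit3*, not in the table, shares 105 bases on the same strand.

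*Trib3* (chr2:152337422-152344032, minus strand), the brake on ATF4 and CHOP, had 37.5, 40.2, 38.8 and 52.5 CPM in AGX51 libraries 1 to 4, against 4.60, 4.20, 5.67 and 3.76 CPM in vehicle libraries 1 to 4. Its vehicle levels rested on 35 to 51 counts, and its AGX51 levels on 173 to 443. The means were 42.3 ± 6.90 CPM with AGX51 and 4.56 ± 0.82 CPM with vehicle (SD, n = 4 each). At 9.82-fold (log2 3.30, standard error 0.18) its fitted change stood beside that of *Ddit3*, and the 0.03 between them on the log2 scale is under either standard error. The ratio was 14.0 in culture 4 and between 6.85 and 9.57 in the other cultures.

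*Atf3* (chr1:191170296-191218039, minus strand) encodes a bZIP factor that is quickly induced by many stresses and mostly represses its targets. It had 13.1, 11.4, 10.6 and 16.5 CPM in AGX51 libraries 1 to 4, against 1.53, 2.16, 2.44 and 2.71 CPM in vehicle libraries 1 to 4. This was the gene with the fewest counts among the 9, with 49 to 139 in AGX51 libraries and 14 to 26 in vehicle libraries. The fitted change was 6.15-fold (log2 2.62, standard error 0.24), and by culture the ratio ran from 4.34 in culture 3 to 8.53 in culture 1.

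*Nupr1* (chr7:126623249-126630861, minus strand) encodes a small chromatin-associated protein that cells make under stress. It had 239, 214, 273 and 401 CPM in AGX51 libraries 1 to 4, against 88.2, 88.4, 95.0 and 129 CPM in vehicle libraries 1 to 4. Culture 4 held the highest level in both arms, and its ratio of 3.10 was near those of the other cultures (2.42 to 2.87). The fitted change was 2.99-fold (log2 1.58, standard error 0.21).

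*Ppp1r15a* (chr7:45522916-45526268, minus strand), which encodes the phosphatase guide GADD34, had 99.3, 124, 116 and 112 CPM in AGX51 libraries 1 to 4, against 55.8, 48.0, 71.2 and 55.1 CPM in vehicle libraries 1 to 4. All AGX51 libraries were above all vehicle libraries, and the fitted change was 2.07-fold (log2 1.05, standard error 0.12). Culture 2 had its highest ratio at 2.58 and culture 3 its lowest at 1.63. It shares 12 exon bases with *Tulp2* on the opposite strand, which had at most 0.63 CPM with AGX51 and 1.80 CPM with vehicle.

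The 9 genes include 2 C/EBP factors. *Cebpg* (chr7:35046422-35056573, minus strand) encodes a short bZIP protein that pairs with ATF4, and it had 60.2, 51.1, 55.2 and 58.0 CPM in AGX51 libraries 1 to 4, against 30.0, 33.1, 35.6 and 35.6 CPM in vehicle libraries 1 to 4. Its fitted change of 1.77-fold (log2 0.82, standard error 0.11) was the smallest in size among the 8 called genes and the nearest to the fold limit, and that of *Atf5*, outside the call, was 1.28-fold. *Cebpb* (chr2:167688915-167690418, plus strand) encodes an activator of stress and inflammatory genes, and it had 19.4, 15.6, 15.9 and 28.8 CPM in AGX51 libraries 1 to 4, against 6.79, 12.2, 8.002 and 11.5 CPM in vehicle libraries 1 to 4. The fitted change was 2.21-fold (log2 1.15, standard error 0.25). Culture 2 had a *Cebpb* ratio of only 1.27, whereas the others had 1.98 to 2.85, the widest spread in log2 ratio among the 9 genes (SD 0.51). *Cebpb* shares 312 exon bases with *Tmem189* on the opposite strand, which was not called (log2 0.32, standard error 0.20, adjusted p = 0.227, edgeR). *Cebpg* shares 73 bases with *Gm44836* on the same strand, a gene at 2.96 to 5.99 CPM with AGX51, against 1.97 to 2.71 CPM with vehicle.

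*Atf5* (chr7:44812256-44816658, minus strand) encodes a factor related to ATF4 that has been tied to mitochondrial protein stress, and its mRNA is likewise under translational control. It had 14.8, 24.9, 18.1 and 32.8 CPM in AGX51 libraries 1 to 4, against 14.2, 18.8, 17.4 and 24.4 CPM in vehicle libraries 1 to 4. The groups overlapped, and within both arms the cultures stood in the same order, with culture 1 lowest and culture 4 highest. The means were 22.7 ± 7.96 CPM with AGX51 and 18.7 ± 4.24 CPM with vehicle (SD, n = 4 each), and the fitted log2 change was 0.36 with a standard error of 0.24. The ratios were 1.04, 1.32, 1.04 and 1.34 in cultures 1 to 4. With the mean fibroblast marker level as a covariate, the fitted log2 change of *Atf5* turned to -0.19, and without AGX51 replicate 4 it was 0.07. With culture as a block it was 0.32 (standard error 0.12). Without AGX51 replicate 1 it was 0.54, and without vehicle replicate 4 it was 0.53. *Atf5* was not called in any of the 16 alternative fits. It shares 82 exon bases with *Nup62* on the opposite strand, which had 74.0 to 110 CPM with AGX51, against 57.8 to 80.7 CPM with vehicle. Use of strand by the counting step is not given in the sources used here, so reads in the shared bases of any of these pairs may belong to either gene.

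**Figure D2:**
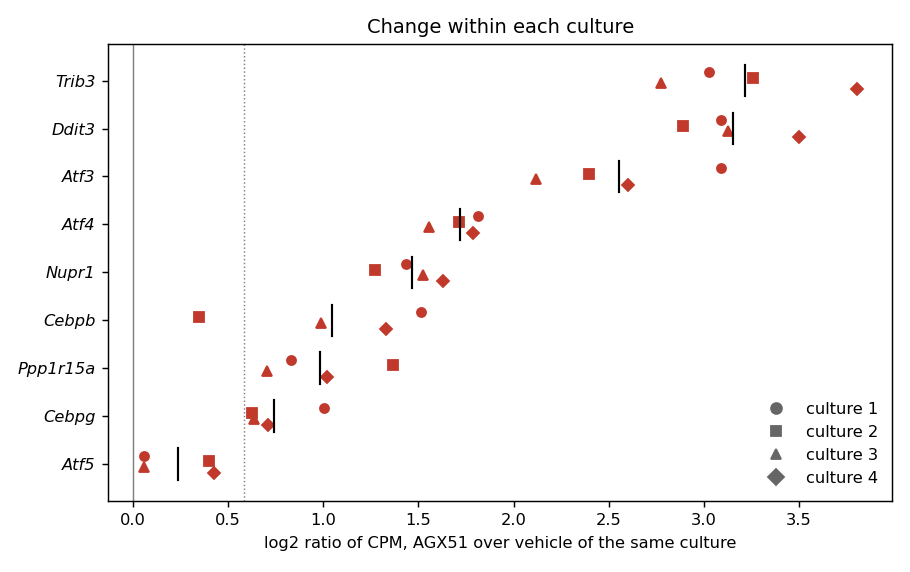
Log2 ratio of CPM in AGX51 over vehicle of the same culture, for each of the 9 genes ordered by the mean over cultures (black bars). The solid line is no change and the dotted line a 1.5-fold ratio, *Trib3* and *Ddit3* have the highest means, the ratio of *Cebpb* in culture 2 lies left of the dotted line, and so do all 4 ratios of *Atf5*.

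The libraries of culture 4 tended to carry the most of these mRNAs. AGX51 library 4 had the highest AGX51 level for 7 of the 9 genes and the lowest for 0, and vehicle library 4 had the highest vehicle level for 5. The ratio was highest in culture 4 for 4 genes (*Ddit3*, *Trib3*, *Nupr1* and *Atf5*), in culture 1 for 4 (*Atf4*, *Atf3*, *Cebpb* and *Cebpg*) and in culture 2 for *Ppp1r15a*. After the group means were removed, 22 of the 36 pairs of these genes had a Pearson r above 0.5 over the 8 libraries, with a median of 0.66. The highest was 0.94, between *Ddit3* and *Nupr1*. *Ppp1r15a* had no r above 0.60 in its 8 pairs and the single negative r (-0.35, with *Cebpb*). *Trib3* was near it, with a highest r of 0.67 (with *Ddit3*), a lowest of 0.20 (with *Cebpb*) and none above 0.60 in its other pairs. These coefficients describe 8 libraries that share cultures, depth and cell make-up, and they were not tested.

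The mean level of fibroblast markers moved with the same libraries, but the markers did not all go one way. Of 22 fibroblast markers 21 were listed, and 9 of these were called higher with AGX51 and 1 (*Twist1*) lower, beside 8.57% and 9.93% of all tested genes. Of the 11 not called, *Pdgfra* (log2 -0.11), *Loxl1* (-0.14) and *Thbs1* (-0.45) were, like *Twist1*, above vehicle in 0 of 4 cultures. The rest of the 11 had positive changes, from 0.04 (*Pdgfrb*) to 0.87 (*Lum*). Their summed level was 5330 to 9081 CPM with AGX51, against 3958 to 6326 CPM with vehicle. Their mean log2 CPM was 6.24, 6.48, 6.52 and 7.13 in AGX51 libraries 1 to 4, against 5.93, 6.17, 6.14 and 6.57 in vehicle libraries 1 to 4 (above vehicle in 4 of 4 cultures). The difference was 0.31 to 0.55 within cultures. A two-sided exact permutation test that ignores the pairing gave p = 0.143 (smallest possible 0.0286), and one within cultures gave p = 0.125, the smallest that 4 pairs allow. With group means removed, this mean had an r of 0.96 with *Atf5*, 0.95 with *Atf4*, 0.87 with *Nupr1* and 0.83 with *Atf3*, but 0.40 with *Trib3* and 0.21 with *Ppp1r15a* over 8 libraries. With the marker mean as a covariate the fitted log2 change was 1.68 for *Atf4*, 2.97 for *Ddit3*, 1.15 for *Nupr1* and 0.73 for *Cebpb*, and the same 8 genes were called. All 10 germ cell markers were listed, among them *Ddx4* and *Dazl*, as the label of the cells asks. Their sum was 1026 to 1435 CPM with AGX51, against 1660 to 2072 CPM with vehicle, and 3 were called lower (*Dazl*, *Etv5* and *Gfra1*), 1 higher (*Mael*) and 6 not. Every germ cell marker except *Mael*, also those not called, was above vehicle in 0 of 4 cultures in CPM. The share of all tested genes with this order was not counted, so nothing is read from it. In CPM, 17.9% of tested genes had every AGX51 library below every vehicle library, and 10.6% had every one above. Most of the lower sum was *Dazl*, with a mean of 339 CPM with AGX51 and 833 CPM with vehicle, whereas *Mael* averaged 257 CPM with AGX51 and 169 CPM with vehicle. Of 14 markers of other testis cells 6 were listed, with sums of 32.0 to 49.8 CPM with AGX51, against 42.3 to 50.1 CPM with vehicle. Of these, 5 were tested, with 1 called higher (*Star*, log2 0.75) and 1 lower (*Kdr*, log2 -2.57). *Kdr* had 0.47 to 1.39 CPM with AGX51, against 4.38 to 7.23 CPM with vehicle. *Star* lost its call with the fibroblast covariate and without culture 4. The Sertoli marker *Amh*, the Leydig markers *Cyp11a1* and *Insl3* and the leukocyte marker *Ptprc* were not among the listed genes. Library totals were 4303318 to 8441399 counts with AGX51, against 8330176 to 9586105 with vehicle, below vehicle in each of the 4 cultures (two-sided exact permutation test, p = 0.0571 without the pairing and 0.125 within cultures). With group means removed, the log2 total had an r of 0.94 with *Ddit3*, 0.85 with *Cebpg* and 0.83 with *Nupr1*, and at most 0.56 with the other 6 genes. The part of cell make-up and depth in the changes above was not tested beyond this covariate.

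Upstream of ATF4 stand the eIF2 kinases and their regulators. Of 22 genes in this list, all tested, 1 was called higher and 1 lower, with a median log2 change of -0.01, against 0.00 over all tested genes, of which 8.57% were called higher and 9.93% lower. With the fibroblast covariate, 3 were called higher and 3 lower. None of the 4 kinases was called. *Eif2ak3*, which encodes the endoplasmic reticulum kinase PERK, had 13.6 to 18.8 CPM with AGX51, against 12.9 to 16.3 CPM with vehicle (log2 0.16, standard error 0.14, adjusted p = 0.406, edgeR). *Eif2ak4*, which encodes the amino acid sensor GCN2, had 23.5 to 30.9 CPM with AGX51, against 36.4 to 43.5 CPM with vehicle, a log2 change of -0.48 (standard error 0.11, adjusted p = 0.00583) that was under the fold threshold. For *Eif2ak1*, the heme-regulated kinase, it was -0.16 (standard error 0.12, adjusted p = 0.365).

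*Eif2ak2*, the kinase activated by double-stranded RNA, had 11.5 to 15.3 CPM with AGX51, against 16.9 to 28.8 CPM with vehicle (log2 -0.53, standard error 0.20, adjusted p = 0.0566, edgeR). It was called lower when library totals alone set the scale (log2 -0.60), with the fibroblast covariate (log2 -0.85) and without AGX51 replicate 4 (log2 -0.62). Without vehicle replicate 4, its highest library, the change was -0.30 (adjusted p = 0.184). With culture as a block it was -0.52 (adjusted p = 0.00322), under the fold threshold. The called genes were *Eif2s2*, the beta subunit of eIF2, which rose by 0.70 on the log2 scale (standard error 0.13, adjusted p = 0.00176), and *Oma1*, a mitochondrial protease that can start the response, with 6.97 to 12.0 CPM with AGX51, against 17.1 to 19.9 CPM with vehicle (log2 -0.73, standard error 0.18, adjusted p = 0.0086). Without AGX51 replicate 2 the *Oma1* change was -0.55 and not called. Phosphorylation of eIF2, through which these kinases act, was not measured.

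Downstream, genes known as ATF4 targets were mostly higher. Of 36 such genes, 35 were listed and 34 tested, and 25 were called higher and 0 lower (8.57% and 9.93% over all tested genes), with a median log2 change of 0.93 (0.00 over all). Of these, 21 were called higher with the fibroblast covariate and 24 without culture 4. The leading one was *Chac1*, a glutathione-degrading enzyme, with 35.6 to 81.6 CPM with AGX51, against 4.05 to 5.28 CPM with vehicle (log2 3.69, standard error 0.25, adjusted p = 1.58e-06, edgeR). *Slc7a3*, a cationic amino acid carrier, had 17.7 to 21.8 CPM with AGX51, against 1.21 to 3.12 CPM with vehicle (log2 3.32, standard error 0.22). *Aars*, the alanine tRNA synthetase, had 179 to 200 CPM with AGX51, against 62.8 to 78.9 CPM with vehicle (log2 1.48, standard error 0.10). *Gdf15*, a stress-induced secreted factor, had 24.9 to 51.1 CPM with AGX51, against 2.30 to 5.01 CPM with vehicle (log2 3.48, standard error 0.28, adjusted p = 6.3e-06). In each of these 4 the groups were far apart.

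The 9 tested targets that were not called included serine and glycine genes, and they are named here after their values were seen. *Shmt2*, the mitochondrial serine hydroxymethyltransferase, had a log2 change of 0.02 (standard error 0.10) and *Phgdh*, the first enzyme of serine synthesis, 0.08 (standard error 0.11), whereas the later serine enzymes *Psat1* (0.91) and *Psph* (0.68) were called higher. *Slc7a5*, a leucine carrier, had a log2 change of 0.23, although *Slc3a2*, which encodes its heavy-chain partner, rose by 1.05. The other genes not called were *Map1lc3b* (0.24), *Ddit4* (0.27), *Wars* (0.39), *Sesn2* (0.51), *Mars* (0.52) and *Gars* (0.55). Of these, *Wars*, *Sesn2*, *Mars* and *Gars* passed the limit on adjusted p (edgeR) and missed only the fold threshold. The target list was drawn up from knowledge of the pathway in other cells, but with earlier results of these data known. Its counts and adjusted p-values are therefore given as a description, and the same holds for the other gene lists here. Binding by ATF4 was not measured here.

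Of 5 genes known as CHOP targets, 2 were called higher and 1 lower, where 18.5% of all tested genes were called in either direction. *Bbc3*, which encodes the pro-apoptotic BH3 protein PUMA, had 9.81 to 16.3 CPM with AGX51, against 4.802 to 6.99 CPM with vehicle (log2 1.15, standard error 0.21, adjusted p = 0.00124, edgeR). *Tnfrsf10b*, a death receptor, had 28.8 to 37.2 CPM with AGX51, against 18.4 to 22.8 CPM with vehicle (log2 0.74, standard error 0.13, adjusted p = 0.00131). *Bcl2*, a survival gene that CHOP represses, had 0.93 to 1.54 CPM with AGX51, against 1.42 to 3.24 CPM with vehicle (log2 -0.99, standard error 0.35, adjusted p = 0.0467). That call on low counts was lost with DESeq2 (adjusted p = 0.0713), with limma-voom (adjusted p = 0.0702), without the count filter (adjusted p = 0.0602) and when any of 6 single libraries was left out. *Ero1l*, an endoplasmic reticulum oxidase, changed by 0.52 on the log2 scale (adjusted p = 0.00354, edgeR), under the fold threshold. *Bcl2l11*, which encodes BIM, changed by 0.24 (adjusted p = 0.526), and neither was called.

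ATF6 and XBP1 run the other arms of the unfolded protein response. Of 19 chaperone and quality control genes, all tested, 4 were called higher and 0 lower, against 8.57% higher and 9.93% lower of all tested genes. The median log2 change was 0.24, and 0.00 over all. *Dnajb9* (log2 0.58, adjusted p = 0.00143, edgeR) was just under the fold threshold. It was called higher with RLE scaling, DESeq2, no count filter or the fibroblast covariate and without culture 4, among others, and the count was then 5. *Herpud1*, which serves the degradation of misfolded proteins and is also known to respond to ATF4, had 42.7 to 58.0 CPM with AGX51, against 12.0 to 18.7 CPM with vehicle (log2 1.89, standard error 0.16, adjusted p = 6.82e-06, edgeR). *Ern1*, which encodes the sensor IRE1, had 14.8 to 17.9 CPM with AGX51, against 7.67 to 9.36 CPM with vehicle (log2 1.06, standard error 0.14). The chaperones *Hspa5*, which encodes BiP, and *Hsp90b1* rose by 0.74 and 0.69 on the log2 scale (standard errors 0.11 and 0.11). *Xbp1* (log2 0.39, adjusted p = 0.00466, edgeR) and *Atf6* (log2 0.50, adjusted p = 0.0225) themselves were higher but under the fold threshold, and so not called. Without vehicle replicate 4, *Atf6* was called higher (log2 0.59). Splicing of *Xbp1* mRNA cannot be read from gene counts.

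**Figure D3:**
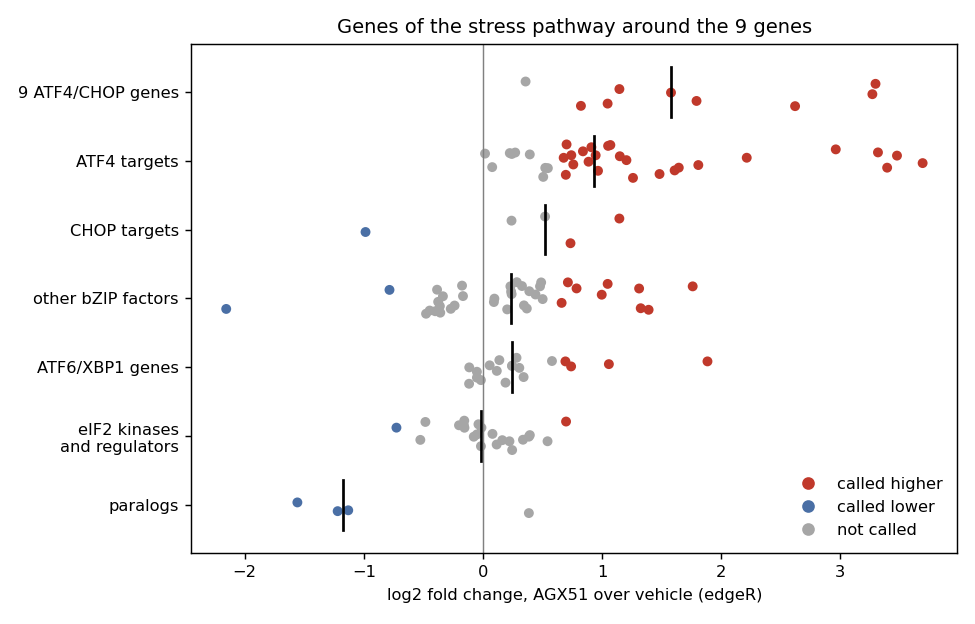
Fitted log2 change (AGX51 over vehicle, edgeR) of the 9 genes and of 6 gene lists around them, with 1 point for each tested gene and a black bar at the median of each list. Red points were called higher, blue lower and grey not called, the ATF4 targets lie mostly right of 0 with a median of 0.93, and the kinases and regulators of eIF2 lie around -0.01 (*Ppp1r15b* is in both the eIF2 list and the paralogs).

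Among the other bZIP factors the calls went both ways. Of 46 genes, 39 were listed and 38 tested, and 9 were called higher and 2 lower (8.57% and 9.93% of all tested genes), with a median log2 change of 0.24 (0.00 over all). *Nfil3*, a repressor tied to circadian genes, rose most (log2 1.76, standard error 0.17, adjusted p = 2.43e-05, edgeR), with 12.1 to 15.045 CPM with AGX51, against 3.55 to 4.78 CPM with vehicle. *Dbp*, a circadian activator, rose by 1.39, *Maff*, a small MAF protein, by 1.32 and *Jun*, the AP-1 subunit, by 0.79 on the log2 scale (standard errors 0.21, 0.20 and 0.10). *Creb3l1*, which encodes a membrane-bound bZIP factor cleaved under stress, fell by 0.78 on the log2 scale (standard error 0.21, adjusted p = 0.0136), and without culture 4 its change was -0.69 and not called (adjusted p = 0.0506). The C/EBP relatives *Cebpa* (-0.38, standard error 0.39) and *Cebpd* (0.44, standard error 0.28) were not called.

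The close relatives of *Trib3*, *Nupr1* and *Ppp1r15a* went against them or moved little. *Trib1*, a pseudokinase that directs C/EBP proteins to degradation, had 4.89, 3.25, 2.02 and 3.08 CPM in AGX51 libraries 1 to 4, against 10.8, 7.20, 11.6 and 11.1 CPM in vehicle libraries 1 to 4 (log2 -1.56, standard error 0.25, adjusted p = 0.000634, edgeR). *Trib2*, which shares this role, had 3.47, 6.27, 4.44 and 8.53 CPM in AGX51 libraries 1 to 4, against 9.64, 12.5, 17.1 and 17.4 CPM in vehicle libraries 1 to 4 (log2 -1.22, standard error 0.28, adjusted p = 0.00529). *Trib3* was thus the one TRIB gene of the 3 that was higher with AGX51. *Nupr1l*, the relative of *Nupr1*, had 3.78, 3.95, 3.76 and 4.50 CPM in AGX51 libraries 1 to 4, against 10.8, 7.56, 10.003 and 8.87 CPM in vehicle libraries 1 to 4 (log2 -1.13, standard error 0.20, adjusted p = 0.00112). For these 3 relatives every AGX51 library was below every vehicle library, an order that 17.9% of all tested genes showed. Of all tested genes, 9.93% were called lower.

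*Ppp1r15b*, which encodes the standing partner of the eIF2 phosphatase, had 51.7, 51.1, 45.8 and 41.0 CPM in AGX51 libraries 1 to 4, against 38.0, 34.0, 38.2 and 41.7 CPM in vehicle libraries 1 to 4. Its groups overlapped through culture 4 (log2 0.39, standard error 0.11, adjusted p = 0.0156, edgeR), and it was under the fold threshold. The 3 relatives called lower were called so with the culture block, with the fibroblast covariate and without culture 4.

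**Figure D4:**
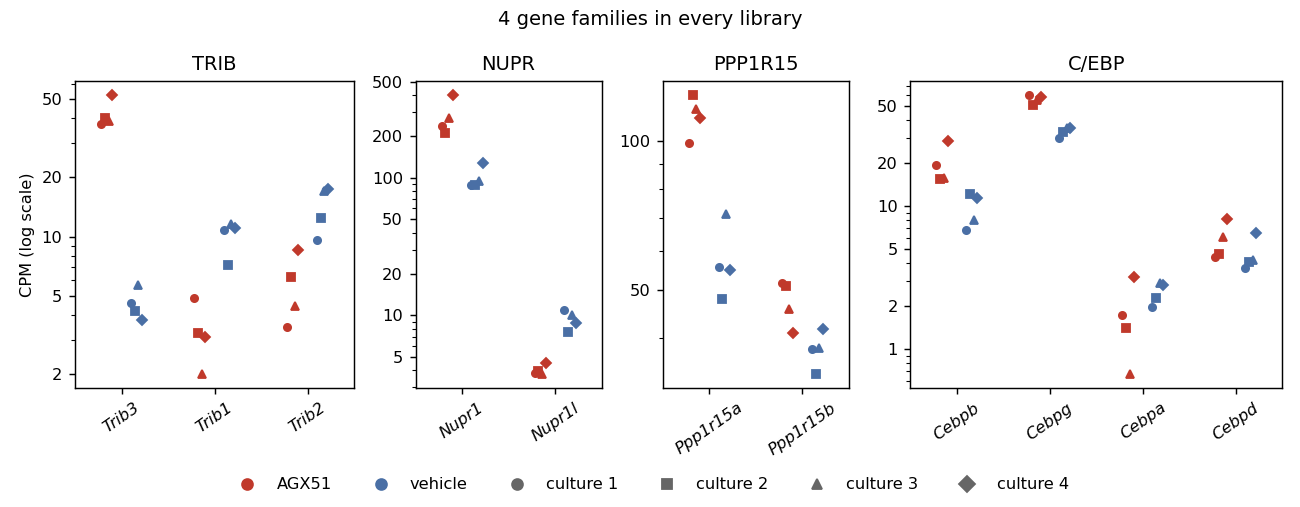
CPM on a log axis in every library for the TRIB, NUPR and PPP1R15 genes and for 4 C/EBP genes, with AGX51 (red) left of vehicle (blue) for each gene and a marker for each culture. The red points lie above the blue ones for *Trib3*, *Nupr1*, *Ppp1r15a*, *Cebpb* and *Cebpg* and below them for *Trib1*, *Trib2* and *Nupr1l*.

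The genes whose pattern was most like that of the 9 were ranked by Pearson r between their log2 CPM and the mean standardised profile of the 9 genes over the 8 libraries. The first 5 were *Sqstm1* (0.998), *Srp72* (0.996), *Cystm1* (0.996), *Fnip1* (0.993) and *Vdac2* (0.993), and 203 genes outside the 9 had an r above 0.95. *Sqstm1*, which encodes the autophagy receptor p62 and is also in the ATF4 target list, had 269 to 410 CPM with AGX51, against 95.6 to 120 CPM with vehicle (log2 1.61, standard error 0.16). Among the 9 genes this r, in which each gene is part of the profile, was 0.99 for *Atf3*, 0.93 for *Cebpb* and 0.59 for *Atf5*. After the group means were removed, the first 5 were *Ccbe1* (0.992), *Tuba1c* (0.988), *Gpd2* (0.985), *Angptl2* (0.983) and *Sqstm1* (0.983), so that *Sqstm1* alone was in both sets of 5. Of these, *Ccbe1* (log2 -0.29, adjusted p = 0.501, edgeR), *Tuba1c* (0.13, adjusted p = 0.566) and *Angptl2* (0.15, adjusted p = 0.669) were not called between AGX51 and vehicle. *Ccbe1* was called lower with the fibroblast covariate (log2 -0.92, adjusted p = 0.0107) and without AGX51 replicate 4 (log2 -0.71, adjusted p = 0.0499). The libraries behind these coefficients share cultures, depth and fibroblast marker levels, and the coefficients are given as a description.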

How the data were processed

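Libraries were made from poly(A)-primed RNA by template switching and tagmentation and were sequenced on a NextSeq2000. The deposited table holds raw counts per gene, made by the authors with RNAsik, and CPM values that the authors made by scaling each count to its library's listed total. The authors' log2 fold change and mean log2 expression columns, and their p-value and FDR columns, hold their own comparison and were not used. The submitters' notes name STAR, featureCounts, Salmon, edgeR, limma and GRCm38, and versions are not given in the sources used here. The table lists 17167 genes. Of these, 22 names that a spreadsheet had turned into dates were restored from gene IDs, and 17147 IDs matched GENCODE M21. Priming at the poly(A) tail means that levels are not per length, so levels were not compared between genes.

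Counts were fitted with R 4.3.3 and edgeR 4.0.16 (filterByExpr with minimum count 10 and minimum total 15, TMM, quasi-likelihood test, Benjamini-Hochberg adjustment over 14428 tested genes, call at adjusted p under 0.05 and above 1.5-fold). Standard errors are the log2 change over the square root of F. The code was tested on simulated data. Totals were 4303318 to 9586105 counts per library, and each pair of replicates differed by more than sampling noise (chi-square over its degrees of freedom, 6.29 to 19.2). Column letters in the labels tie each replicate number to 1 culture, so numbers pair AGX51 with vehicle. After removal of group means, r was 0.113 to 0.444 within a culture and -0.287 to 0.0951 between cultures.

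Alternatives were RLE or total scaling, no count filter, DESeq2 1.42.0, limma-voom (limma 3.58.1), culture as a block, the fibroblast marker mean as a covariate, each library left out and culture 4 left out. The 9 genes, the lists and the alternatives were chosen with earlier results of these data known. Genes were named by rule: the 9 genes, up to 4 called members of each list in each direction with the smallest adjusted p, the 4 eIF2 kinases, the paralogs and the 5 genes most like the 9 by each r. Others were named after their values were seen. Values of 1 gene that the rule names are not reported here. For all 9 genes, promoter sequences came from RefSeq (GRCm38.p6).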

Additional observations from a re-analysis of the deposited data

Results flagged for a closer look

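Of 94 groups of 4 libraries that were examined, 13 held a library set apart. Its gap to its nearest neighbour, as a share of the group's range, passed Dixon's 95% limit. Many of the genes were picked by their values in these same libraries. The limit's chance rate of about 1 in 20 is therefore no yardstick for the 13. Among the 9 genes, *Atf4* had 54.5 CPM in vehicle replicate 1 and 61.4 to 61.9 CPM in the other vehicle libraries. *Nupr1* had 129 CPM in vehicle replicate 4 and 88.2 to 95.0 CPM in the others.

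Among relatives and list genes, *Oma1* had 6.97 CPM in AGX51 replicate 2 (others 11.6 to 12.0), *Jun* 105 CPM in AGX51 replicate 2 (others 80.6 to 82.0) and *Dbp* 14.9 CPM in AGX51 replicate 2 (others 10.4 to 11.03). *Ern1* had 9.36 CPM in vehicle replicate 2 (others 7.67 to 7.89) and *Trib1* 7.20 CPM in vehicle replicate 2 (others 10.8 to 11.6). *Hsp90b1* had 1112 CPM in vehicle replicate 3 (others 934 to 941), and *Eif2ak2* had 28.8 CPM in vehicle replicate 4 (others 16.9 to 18.3).

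In AGX51 replicate 4, which had the highest fibroblast marker mean, *Sqstm1* had 410 CPM (others 269 to 277), *Cystm1* 261 CPM (others 195 to 203), *Tuba1c* 77.2 CPM (others 52.1 to 53.9) and *Angptl2* 25.7 CPM (others 12.5 to 14.1). These genes were named for their likeness to the 9 genes, of which 7 had their highest AGX51 level in this library. AGX51 replicate 2, which had the lowest total of 4303318 counts, was the library set apart in 3 of the 13.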

How the results depend on the processing

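Over the 16 alternatives, the count of the 9 genes called higher stayed at 8, and each kept its call. With the replicate block, which pairs the libraries by culture, 8 of the 9 genes were called higher, and no list count given in the report moved except that of the fibroblast markers, of which 8 and not 9 were called higher. With the fibroblast covariate, 3 eIF2 genes were called higher and 3 lower, and 4 other bZIP factors were called lower. With library totals alone, 2 eIF2 genes were called lower. Of the ATF6 and XBP1 genes, 5 and not 4 were called higher with RLE scaling, DESeq2, no count filter or the fibroblast covariate. The same held without culture 4 and in some fits without a single library. Leaving out single libraries gave 1 to 2 eIF2 genes called higher (2 without vehicle replicate 3), 0 to 2 called lower (0 without AGX51 replicate 2, 2 without AGX51 replicate 4), and 0 to 1 CHOP targets called lower. Without culture 4, 1 other bZIP factor was called lower. No CHOP target was called lower with DESeq2, limma-voom or no count filter (0 each). The cause was not tested. *Gpd2* (called higher, log2 0.79) lost its call with the fibroblast covariate (log2 0.31), without culture 4 and without vehicle replicate 1, vehicle replicate 2 or AGX51 replicate 4. *Atf3*, *Trib3* and *Bcl2* rest on few counts in one or both groups, which limits their precision.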
